A study of Mus musculus with 88 samples.

Results

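The genes described here are 38 genes of NF-kB, cytokine and innate immune signalling, out of 53749 genes in the deposited count tables. They were chosen by symbol, through the mouse GENCODE vM21 annotation. No rule on measured values was used, but earlier results of these data were known when they were chosen. By role they were 5 inhibitors (Nfkbia, Nfkbib, Nfkbiz, Tnfaip3, Socs3), 5 NF-kB subunits (Nfkb1, Nfkb2, Rela, Relb, Rel), 8 kinases and adaptors (Ikbkb, Chuk, Ripk1, Ripk2, Myd88, Irak2, Irak3, Irak4), 10 receptors (Tnfrsf1a, Tnfrsf1b, Il1r1, Il6ra, Il6st, Il10ra, Tlr2, Tlr3, Tlr4, Tlr7), 7 secreted ligands (Tnf, Il1a, Il1b, Il1rn, Ccl2, Ccl3, Ccl4) and 3 inflammasome genes (Nlrp3, Nlrp1b, Casp1). The study asked how fear learning and the stress hormone corticosterone change transcription in neurons and glia, and it measured RNA of sorted nuclei together with γH2AX, a chromatin mark of DNA double-strand breaks, in 88 samples.

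All animals were male C57BL/6J mice of 4 months, housed singly before the experiment, with no transgene or deletion in any group. In the contextual fear conditioning (CFC) experiment, mice received foot shocks in a training chamber and were taken 10 minutes (CFC10) or 30 minutes (CFC30) later, and naive mice stayed in the home cage. Nuclei of hippocampus (HIP) and medial prefrontal cortex (mPFC) were fixed and sorted by the neuronal protein NeuN into NeuN+ and NeuN- fractions, with n = 4 libraries for each HIP group and n = 3 for each mPFC group. Naive replicates 3 and 4 of HIP NeuN- nuclei held identical counts for all 53749 genes and were counted as 1 sample, which left n = 3 in that group. In the hormone experiment, mice were injected with 2 mg/kg corticosterone (as a complex with cyclodextrin) or saline, and hippocampal nuclei were sorted after 30 minutes into NeuN+ (neurons), GFAP+ (astrocytes), PU.1+ (microglia) and 3X- nuclei, the last being negative for all 3 markers and, by the study's description, enriched in oligodendrocytes (n = 4 libraries for each population and treatment). The sources used here do not say how many mice went into each RNA library, so p-values measure the spread between these libraries.

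NF-kB is a family of transcription factors that wait in the cytoplasm bound to inhibitors of the IκB family. Tumour necrosis factor, interleukin 1 and microbial products act through receptors, adaptors and kinases that mark the inhibitor for destruction, and the freed subunits then switch on cytokines, chemokines and also their own inhibitors. In brain, microglia carry much of this machinery, and glucocorticoids, acting through a nuclear receptor, are widely used as anti-inflammatory drugs.

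Library totals were 5935395 to 12758257 counts in the hormone experiment, 10561897 to 18271372 in HIP and 10577263 to 16392677 in mPFC. Levels are given as library-scaled counts (CPM) or, between genes, as the same values divided by the gene-body length in kilobases (FPKM), because the authors counted intronic and exonic reads. The sort matched its labels: in saline libraries the summed level of 12 microglia markers was 8314 to 8978 CPM in PU.1+ nuclei and at most 85.3 CPM in any library of the other populations. Astrocyte markers were highest in GFAP+ nuclei (mean 12690 CPM), oligodendrocyte markers in 3X- nuclei (9584 CPM) and neuron markers in NeuN+ nuclei (5142 CPM). The PU.1+ nuclei were not pure, with 744 CPM of astrocyte, 879 CPM of neuron and 308 CPM of oligodendrocyte markers in saline. In bulk samples of this kind, fewer cells of a type and less RNA per cell cannot be told apart.

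Promoters of 3 members are shown because the results below turn on these genes: Nfkbia, which rose in all 3 glial populations, and Rel and Il1a, which fell in PU.1+ nuclei. Each sequence is the 250 bases before the RefSeq start on GRCm38.p6, read 5′ to 3′ on the strand of the gene, and capitals mark matches to the kappaB consensus, the motif that NF-kB binds. The windows are chr12:55492648-55492897 (minus strand) for Nfkbia, chr11:23770970-23771219 (minus strand) for Rel and chr2:129309973-129310222 (minus strand) for Il1a.
Nfkbia: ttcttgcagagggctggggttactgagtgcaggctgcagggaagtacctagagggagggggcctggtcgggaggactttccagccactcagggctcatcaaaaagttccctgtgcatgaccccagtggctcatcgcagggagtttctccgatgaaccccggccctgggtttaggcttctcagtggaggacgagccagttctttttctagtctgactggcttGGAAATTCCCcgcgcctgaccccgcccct
Rel: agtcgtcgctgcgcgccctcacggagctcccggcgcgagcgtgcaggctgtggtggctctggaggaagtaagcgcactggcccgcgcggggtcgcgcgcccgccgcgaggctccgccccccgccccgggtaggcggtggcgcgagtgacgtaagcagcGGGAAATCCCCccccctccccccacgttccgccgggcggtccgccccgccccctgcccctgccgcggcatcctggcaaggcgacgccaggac
Il1a: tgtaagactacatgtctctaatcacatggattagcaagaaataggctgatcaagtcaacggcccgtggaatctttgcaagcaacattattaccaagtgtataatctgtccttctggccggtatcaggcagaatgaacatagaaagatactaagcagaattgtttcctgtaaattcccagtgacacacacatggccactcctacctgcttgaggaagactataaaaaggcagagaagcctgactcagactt
The match in the Nfkbia promoter ended 20 bases before the start, the nearest in the Rel promoter ended 82 bases before it, and the Il1a window held no match but a TATA box (TATAAA). Of the members, 28 were matched to the promoter table, with 38 promoters. The kappaB consensus was found on either strand, overlapping matches included, in 10 of these 38 promoters (26.3%), which belong to Nfkbia, Tnfaip3, Nfkb2, Rel, Il1r1, Tlr2, Tlr3 and Nlrp3, and in 2382 of 32851 promoters in all (7.25%). The glucocorticoid half-site AGAACA was in 4 of the 38 (10.5%) and 16.1% of all promoters, and TATAAA in 5 of the 38 (13.2%) and 12.4%. A match describes the letters of this window and is not a binding measurement.

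In hippocampus of saline-injected mice the 38 genes were mostly highest in PU.1+ nuclei. Of the 33 that could be judged, mean FPKM in saline was highest in PU.1+ nuclei for 28, in GFAP+ nuclei for Nfkbia and Tlr3, in 3X- nuclei for Chuk and Irak3, and in NeuN+ nuclei for Il1r1. When each saline population was set against the mean of the other 3 in edgeR's quasi-likelihood test (Benjamini-Hochberg adjusted p under 0.05), 32 of 34 tested members were higher in PU.1+ nuclei and 2 (Chuk and Il1r1) were lower, where 66.5% of all tested genes passed in either direction. Chuk was called lower after scaling between libraries. Its unscaled CPM were 69.0 to 77.3 in PU.1+ and 74.8 to 81.5 in 3X- nuclei. They were 67.9 to 69.5 in GFAP+ and 57.8 to 60.8 in NeuN+ nuclei, so its unscaled level was not lowest in PU.1+ nuclei. The median member was 3.21 higher on the log2 scale, against −0.03 for all tested genes. Of the 34, 13 passed the filter on low values through their PU.1+ level alone, so their higher level there follows in part from the filter. In GFAP+ nuclei 6 members were higher and 12 lower (53.5% of all genes passed), in 3X- nuclei 6 were higher and 15 lower (54.2%), and in NeuN+ nuclei 2 were higher and 28 lower (65.4%).

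**Figure D1:**
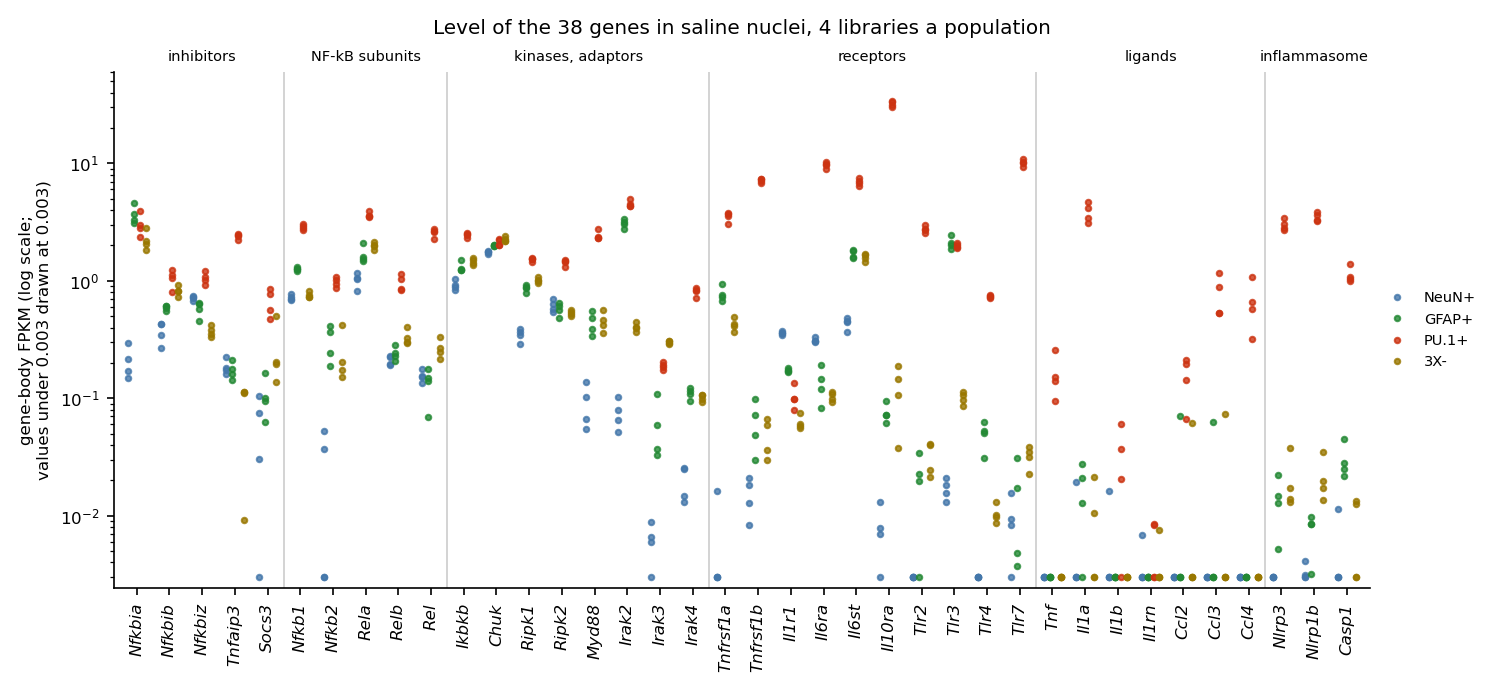
Level of each of the 38 genes (gene-body FPKM, log scale) in saline nuclei, 1 point for each of the 4 libraries of a population, ordered by role, with values under 0.003 drawn at 0.003. PU.1+ points lie above the other populations for most receptors, ligands and inflammasome genes, while Nfkbia, Chuk and Tlr3 lie close together in more than 1 population.

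Among inhibitors, Nfkbia, which encodes IκBα and is itself a target of NF-kB, was shared by glia. It was at 3.68 ± 0.652 FPKM (SD, n = 4) in GFAP+, 3.02 ± 0.674 in PU.1+ and 2.23 ± 0.413 in 3X- nuclei, and the GFAP+ and PU.1+ libraries overlapped. NeuN+ nuclei had 0.208 FPKM. Tnfaip3, which encodes the ubiquitin-editing inhibitor A20, was at 2.39 ± 0.130 FPKM in PU.1+ nuclei and at 0.184 FPKM in NeuN+ nuclei, the next highest population. Nfkbiz, the gene of the nuclear IκBζ protein, was less restricted, at 1.06 FPKM in PU.1+, 0.714 in NeuN+, 0.576 in GFAP+ and 0.371 in 3X- nuclei.

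All 5 NF-kB subunits were higher in PU.1+ nuclei than in the mean of the other populations, but by different amounts. Rel, the c-Rel subunit of lymphoid and myeloid cells, was at 2.57 ± 0.203 FPKM in PU.1+ nuclei, 9.67-fold the next population, 3X-. Rela, the p65 subunit, was broader, with 3.64 FPKM in PU.1+ and 2.00 in 3X- nuclei, and Nfkb1, which encodes p105 and p50, had 2.87 FPKM in PU.1+ and 1.26 in GFAP+ nuclei. Among kinases and adaptors, 7 of 8 were higher in PU.1+ nuclei. Chuk, the IκB kinase IKKα, was nearly even, at 2.27 FPKM in 3X-, 2.14 in PU.1+, 2.01 in GFAP+ and 1.75 in NeuN+ nuclei. Irak2, a transducer of interleukin 1 and Toll-like receptor signals, was at 4.54 ± 0.292 FPKM in PU.1+ and 3.09 FPKM in GFAP+ nuclei. Irak3, its inhibitory relative, was highest in 3X- nuclei, at 0.300 FPKM against 0.188 in PU.1+.

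Receptors held the highest levels of the 38 genes. Il10ra, the ligand-binding chain for interleukin 10, was at 32.2 ± 1.88 FPKM in PU.1+ nuclei, 271-fold the 0.119 FPKM of 3X- nuclei. Tlr7, an endosomal sensor of single-stranded RNA, was at 10.1 ± 0.656 FPKM in PU.1+ nuclei, 316-fold the next population. Il6ra, the interleukin 6 binding chain, followed at 9.67 ± 0.495 FPKM, and Tnfrsf1b, the second tumour necrosis factor receptor, at 7.13 ± 0.241 FPKM. Il6st, the shared signalling chain gp130, was broader, at 6.97 ± 0.463 FPKM in PU.1+ and 1.69 in GFAP+ nuclei. The exceptions were Tlr3, a sensor of double-stranded RNA, with 2.11 ± 0.245 FPKM in GFAP+ nuclei and 1.99 in PU.1+ nuclei and overlapping libraries, and Il1r1, the signalling receptor of interleukin 1, with 0.360 FPKM in NeuN+, 0.173 in GFAP+ and 0.103 in PU.1+ nuclei.

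Of the ligands, Il1a, the gene of interleukin 1α, was the 1 with a clear level, at 3.83 ± 0.709 FPKM in PU.1+ nuclei, 250-fold the next population. The inflammasome genes were also microglial: Nlrp1b was at 3.49, Nlrp3 at 2.99 and Casp1 at 1.13 FPKM in PU.1+ nuclei. Nlrp1b belongs to a cluster of near-identical paralogs, and its counts may be split among them. Tnf, Il1b, Il1rn, Ccl2 and Ccl3 had a mean count under 10 in every group of the hormone experiment and were too low to judge there, and with Ccl4 they were too low in NeuN- nuclei of both regions. Across all libraries of the RNA experiments Tnf never exceeded 7 counts, Il1b 6, Il1rn 3, Ccl2 3 and Ccl3 14. By the same limit, 23 members were too low in NeuN+, 12 in GFAP+ and 11 in 3X- nuclei of the hormone experiment, and 20 in NeuN+ nuclei of each region of the CFC experiment.

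After corticosterone, most of the members that passed the test did so in PU.1+ nuclei. There 32 members were tested and 13 passed, 5 higher and 8 lower, or 40.6%, where 7.81% of all tested genes passed. The 5 that rose were Nfkbia, Tlr7, Il6ra, Irak2 and Tlr4, and the 8 that fell were Il1a, Nfkbiz, Ripk2, Tnfrsf1b, Rel, Il6st, Il10ra and Tnfrsf1a. For all 13, the 4 saline and 4 corticosterone libraries did not overlap in CPM. This follows in part from their selection by a test on the same libraries. The share of all genes without such overlap was not counted. The median log2 fold change of the tested members was −0.13, against 0.00 (0.00254) over all tested genes. In 3X- nuclei 2 of 18 tested members rose (7.48% of all genes passed), in GFAP+ nuclei 2 of 17 (2.93%) and in NeuN+ nuclei 1 of 13 (2.06%), and none fell.

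The largest inhibitor response was that of Nfkbia (chr12:55489410-55492647, minus strand, GRCm38), whose promoter is printed above. In PU.1+ nuclei its saline libraries held 9.12, 7.60, 12.8 and 9.65 CPM, and the corticosterone libraries 29.6, 27.5, 26.5 and 31.8 CPM. Every treated library was above every saline library, and the log2 fold change was 1.59 ± 0.124 (SE), a 3.01-fold rise (edgeR adjusted p = 7.14e-07). Nfkbiz (chr16:55811375-55838899, minus strand), of the same family, went the other way. It fell from 29.9, 25.5, 27.9 and 33.6 CPM to 14.5, 17.6, 19.8 and 16.2 CPM, a log2 fold change of −0.75 ± 0.106 (adjusted p = 0.000242). The other 3 inhibitors did not pass: Tnfaip3 had a log2 fold change of −0.14 (adjusted p = 0.429), Nfkbib of −0.07 and Socs3, at a mean of 2.63 CPM in saline, of −0.03.

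Among subunits, Rel alone passed. Its saline libraries held 93.9, 88.7, 77.8 and 90.1 CPM and its corticosterone libraries 63.7, 67.5, 67.8 and 66.5 CPM, a log2 fold change of −0.37 ± 0.0629 (adjusted p = 0.00133). The treated libraries lay close together, below the lowest saline library. Relb, a subunit of the non-canonical pathway, had a log2 fold change of −0.31 with groups that did not overlap, and missed the threshold (adjusted p = 0.101). Rela (0.07) and Nfkb1 (−0.07) were near 0 on the log2 scale and Nfkb2 was at −0.28 (adjusted p = 0.314). Among kinases and adaptors, Ripk2, the kinase downstream of NOD receptors, fell from 60.7, 58.7, 53.6 and 61.1 CPM to 38.3, 32.2, 45.5 and 43.1 CPM (log2 fold change −0.52, adjusted p = 0.0015). Irak2 rose from 280.2, 247, 244 and 257 CPM to 328, 300.4, 294 and 309 CPM (0.30, adjusted p = 0.00325). The IκB kinases Ikbkb and Chuk, and Ripk1, Myd88 and Irak4, did not pass, with log2 fold changes of −0.17 to 0.02, and Irak3 was under the filter, as was the receptor Il1r1. Myd88 lies inside an overlapping gene on its own strand, so its counts are uncertain.

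Receptors moved in both directions. Tlr7 (chrX:167304929-167330558, minus strand) held 256, 277, 262 and 237 CPM in saline and 491, 526, 463 and 496 CPM after corticosterone, a 1.96-fold rise (log2 fold change 0.97 ± 0.0583, adjusted p = 5.89e-08), the smallest p of the 38 genes in this comparison. Il6ra rose from 501, 484, 443 and 472 CPM to 661, 652, 589 and 623 CPM (0.44 ± 0.0544, adjusted p = 6.08e-05). Its partner chain Il6st, which binds no interleukin 6 by itself, fell from 326, 348, 297 and 312 CPM to 230.4, 230.4, 271 and 256 CPM (−0.34 ± 0.065, adjusted p = 0.00302). The binding and the signalling chain of the interleukin 6 receptor thus had opposite signs in the same nuclei. Tlr4, the receptor of bacterial lipopolysaccharide, rose by 0.29 on the log2 scale (73.9 to 77.0 CPM in saline, 85.3 to 99.3 CPM after corticosterone, adjusted p = 0.00378). Tlr2 (−0.15, adjusted p = 0.492) and Tlr3 (−0.01, adjusted p = 0.951) did not pass.

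Of the tumour necrosis factor receptors, Tnfrsf1b fell from 245, 244, 234 and 229 CPM to 176, 173, 184 and 184 CPM (−0.38 ± 0.0484, adjusted p = 0.000102). Il10ra fell from 459 to 522 CPM in saline to 392 to 424 CPM after corticosterone (−0.26 ± 0.0541, adjusted p = 0.0058). Tnfrsf1a, the receptor with a death domain, had 39.9 to 49.1 CPM in saline and 36.4 to 38.2 CPM after corticosterone (−0.26, adjusted p = 0.0426). This last call was lost when any library other than saline replicate 3 was left out, with adjusted p up to 0.135, and also by DESeq2, without the filter on low values, with all groups in 1 fit and with a replicate block, whereas the other 12 were kept in all 8 such fits.

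Il1a (chr2:129299610-129309972, minus strand) showed the largest change of the 38 genes in PU.1+ nuclei. Its saline libraries held 48.4, 42.8, 32.2 and 35.3 CPM and its corticosterone libraries 9.28, 10.9, 13.6 and 12.8 CPM. The groups were far apart, with a log2 fold change of −1.73 ± 0.141 (adjusted p = 1.09e-06), or 3.32-fold lower. The antisense gene Gm14023 overlaps 79.3% of Il1a, and how the counting used strand is not given in the sources used here. Gm14023 itself was at 1.65 CPM in saline and 1.12 CPM after corticosterone. The part of antisense reads in the Il1a counts was not tested. The other ligands were too low (Tnf, Il1b, Il1rn, Ccl2, Ccl3) or did not pass (Ccl4, log2 fold change 0.16, adjusted p = 0.856). Of the inflammasome genes, Nlrp3, the sensor that assembles the complex, had 86.4, 77.2, 70.8 and 68.8 CPM in saline and 62.3, 54.5, 63.4 and 65.0 CPM after corticosterone. Its groups did not overlap and its log2 fold change was −0.27, which missed the threshold (adjusted p = 0.0523), while Casp1 (−0.25) and Nlrp1b (−0.01) did not pass.

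**Figure D2:**
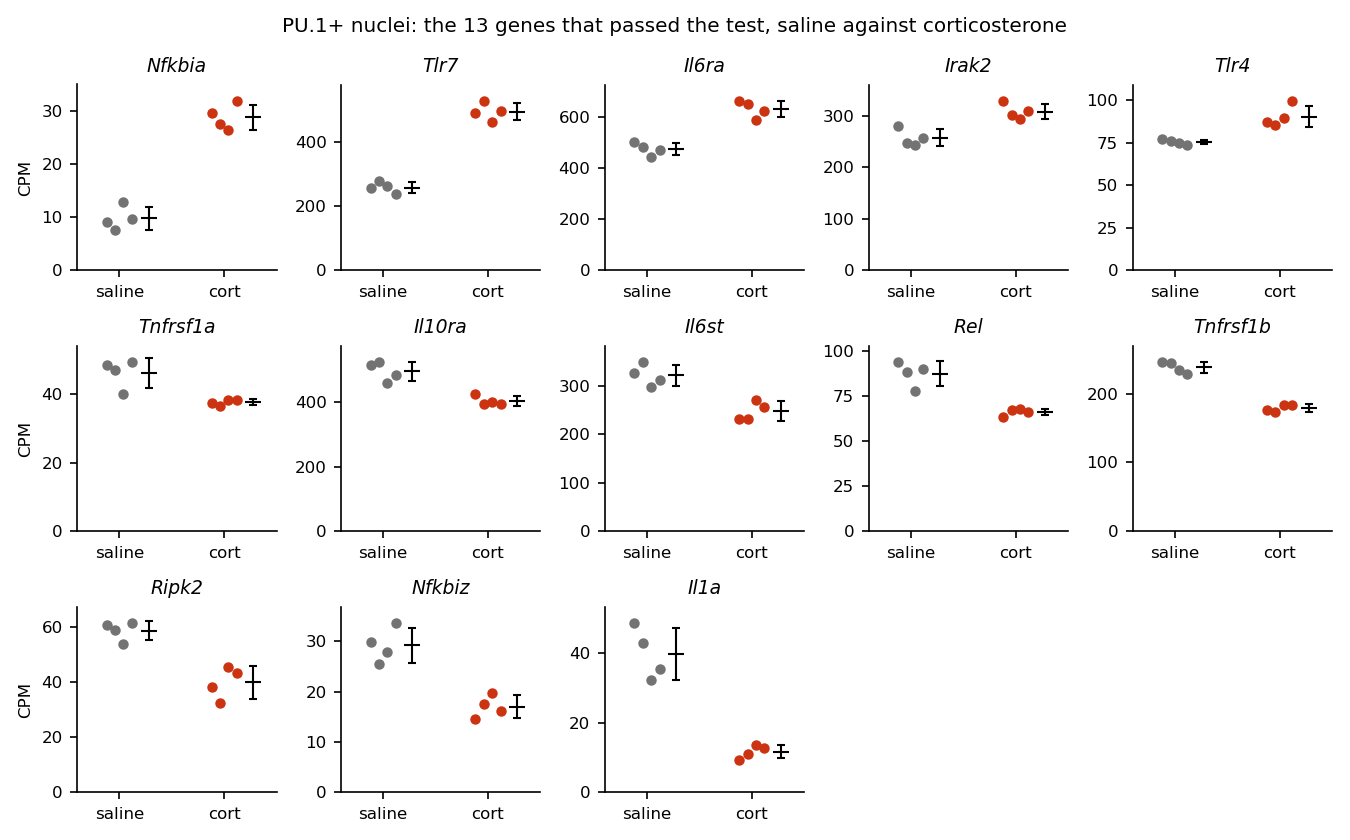
CPM of the 13 genes that passed the test in PU.1+ nuclei, 1 point for each library (4 saline in grey, 4 corticosterone in red), with mean and SD as bars and an axis from 0, ordered from the largest rise to the largest fall. The genes were picked by the test on these same libraries, and in each panel the saline and corticosterone points do not overlap, from Nfkbia (1.59 on the log2 scale) to Il1a (−1.73).

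The make-up of the PU.1+ libraries also moved with treatment. The summed microglia markers were 8314 to 8978 CPM in saline and 7709 to 8104 CPM after corticosterone, a ratio of 0.92, and the astrocyte markers 639.5 to 866 CPM and 926 to 1188 CPM, a ratio of 1.37, both without overlap. The monocyte and neutrophil markers went from 3.98 to 2.55 CPM, with 2 of their 5 genes at 0 after treatment, whereas neuron, oligodendrocyte and border macrophage markers overlapped between groups. The part of these shifts in the PU.1+ results was not tested. For Nfkbia, corticosterone libraries held 21.8 to 24.0 CPM in GFAP+, 22.0 to 29.8 CPM in 3X- and 26.5 to 31.8 CPM in PU.1+ nuclei. The ratio of mean CPM after corticosterone to saline was, for the 8 genes that fell, 0.293 for Il1a, 0.582 for Nfkbiz, 0.68 for Ripk2, 0.753 for Tnfrsf1b, 0.758 for Rel, 0.771 for Il6st and 0.815 for both Il10ra and Tnfrsf1a, beside 0.92 for the microglia markers.

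In astrocyte nuclei, Nfkbia rose from 11.9, 10.1, 14.9 and 10.7 CPM to 22.8, 22.0, 24.0 and 21.8 CPM (log2 fold change 0.98 ± 0.112, adjusted p = 0.000346). Irak2 rose from 178, 174, 190 and 157 CPM to 238, 246, 257 and 251 CPM (0.55, adjusted p = 0.000409). The saline and corticosterone libraries did not overlap for either gene. In 3X- nuclei Nfkbia showed its largest rise, from 7.10, 5.96, 9.10 and 6.72 CPM to 29.8, 29.8, 22.0 and 26.5 CPM (1.92 ± 0.128, adjusted p = 1.03e-13). Irak2 in 3X- nuclei held 25.4, 22.9, 20.9 and 22.5 CPM in saline and 29.3, 24.0, 29.7 and 28.3 CPM after corticosterone, which overlapped (0.32, adjusted p = 0.0344). That call was lost without saline replicate 2, 3 or 4 or corticosterone replicate 1, 3 or 4, with adjusted p up to 0.133, and also by DESeq2, without the filter on low values and with all groups in 1 fit. Oligodendrocyte markers in 3X- nuclei were 1.1-fold and oligodendrocyte precursor markers 1.19-fold their saline level after corticosterone, without overlap, and their part in the 3X- values was not tested.

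In neuronal nuclei the 1 member that passed was Il6ra, which rose from 15.2, 16.3, 15.0 and 14.9 CPM to 21.7, 22.1, 20.3 and 20.2 CPM with no overlap (0.48 ± 0.0838, adjusted p = 0.000128). The size was close to that of Il6ra in PU.1+ nuclei. Nfkbia had 4 to 9 counts in saline and 8 to 12 counts after corticosterone in NeuN+ nuclei (0.70, adjusted p = 0.478), too few to judge. All 8 groups of the hormone experiment were also fitted together, so that members expressed in PU.1+ nuclei were tested in every population. Of 34 tested members, 12 passed there in PU.1+, 5 in 3X-, 3 in GFAP+ and 1 in NeuN+ nuclei. Of 18535 genes, 1038, 1444, 562 and 47 passed in the same order. Compared with the separate fits, Ripk1 fell in 3X- nuclei (−0.30, edgeR adjusted p = 0.0157) and the Irak2 call there was lost. In glia, 4 more rises appeared. These were Il6ra in 3X- nuclei (4.52 to 5.59 CPM in saline, 6.87 to 9.25 CPM after corticosterone, log2 fold change 0.72, adjusted p = 0.000735), Il1r1 in 3X- nuclei (0.76, adjusted p = 0.00116), and Tlr7 in GFAP+ (2.17, adjusted p = 0.0112) and 3X- nuclei (1.58, adjusted p = 0.00569). The Tlr7 values rest on few reads: 1 to 6 counts in saline and 8 to 16 after corticosterone in GFAP+ nuclei, and in 3X- nuclei 5 to 9 counts in saline and 10, 10, 56 and 6 after corticosterone, so that corticosterone replicate 3 carried most of them. Tlr7 passed the filter of this fit through its PU.1+ level alone. Mean microglia markers in saline and after corticosterone were 80.6 and 88.3 CPM in 3X- and 79.0 and 73.5 CPM in GFAP+ nuclei. The part of microglial RNA in these rises was not tested.

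**Figure D3:**
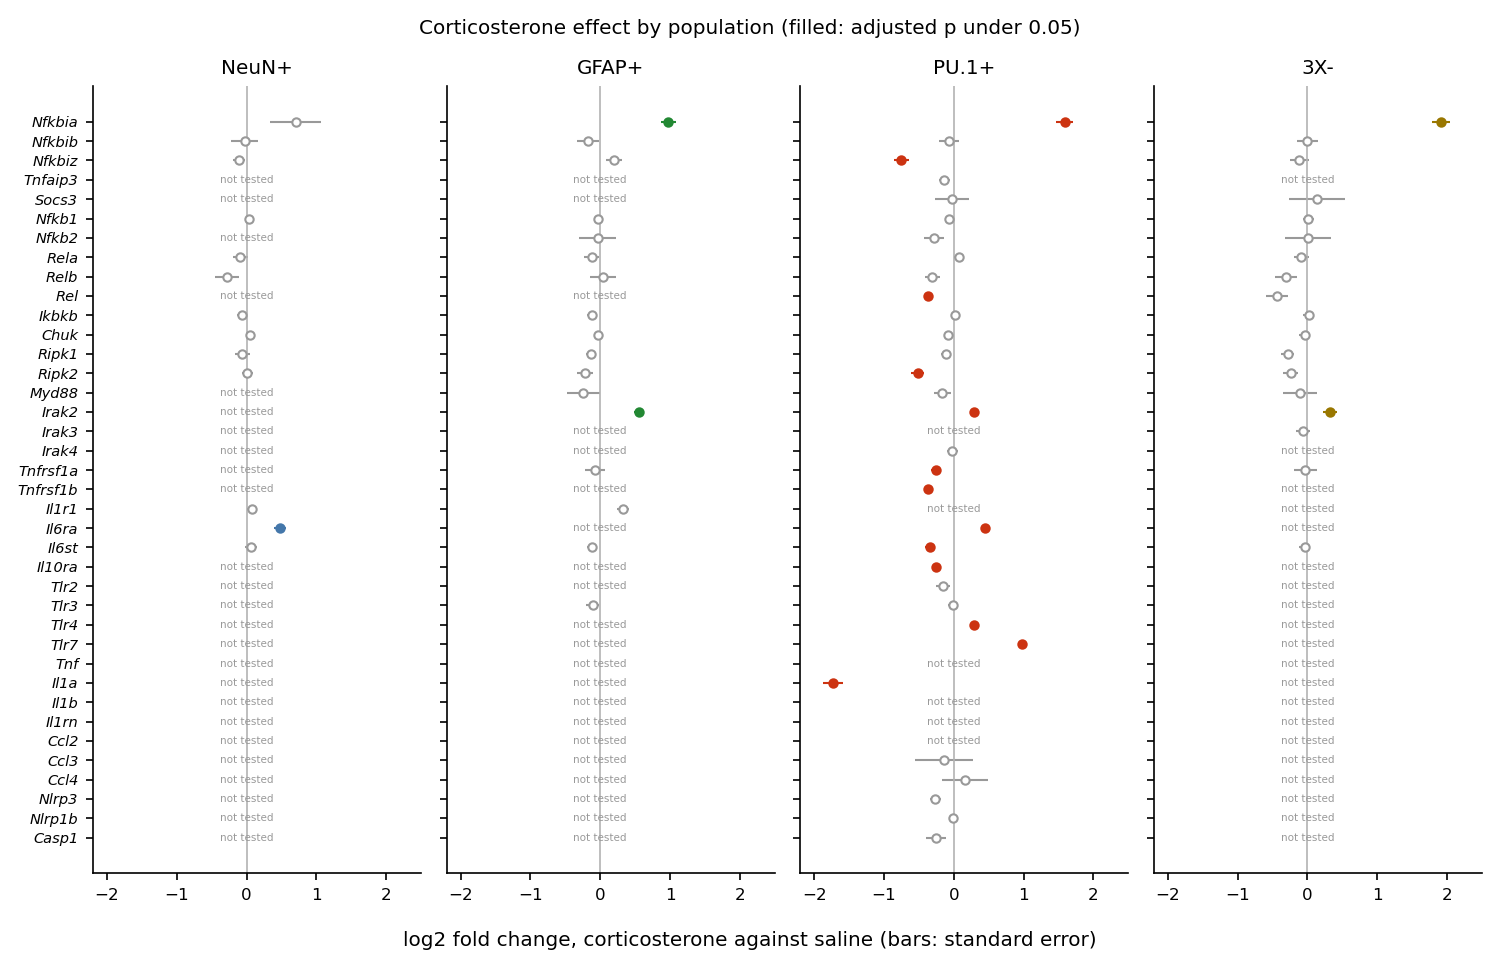
Log2 fold change of corticosterone against saline with its standard error for each of the 38 genes in the 4 populations, filled where the adjusted p was under 0.05, from the fit of each population by itself. Nfkbia was filled in GFAP+ (0.98), PU.1+ (1.59) and 3X- (1.92) nuclei, and falls were filled in PU.1+ nuclei only; genes marked as not tested were below the filter on low values.

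Whether the response of microglia differed from that of the other populations was tested as a contrast of effects over all 32 libraries. These were treated as independent, although the study gated the populations in sequence from the same hippocampal nuclei. Of 34 tested members, 2 differed, both lower in PU.1+ nuclei, where 2.72% of all tested genes passed. Nfkbiz changed by −0.75 more in PU.1+ nuclei than in the mean of the others (SE 0.124, adjusted p = 4.68e-05), with log2 fold changes of −0.11 in NeuN+, 0.20 in GFAP+ and −0.12 in 3X- nuclei. Il6st changed by −0.31 more (SE 0.0826, adjusted p = 0.0215), with 0.06 in NeuN+, −0.12 in GFAP+ and −0.04 in 3X- nuclei. The Il6st call was lost without PU.1+ saline replicate 1 or 2 or PU.1+ corticosterone replicate 1 or 2 (adjusted p up to 0.12) and when genes of low level were kept (0.165), while that of Nfkbiz was kept in all 32 such fits. For Nfkbia the difference was 0.39 (SE 0.194, adjusted p = 0.529), and for Irak2 0.02. For Il1a it was −1.99 with an SE of 1.09 (adjusted p = 0.601) and for Tlr7 −0.52 with an SE of 0.359, and the few counts of these genes outside microglia leave a difference undetectable at this depth. So the effect of corticosterone on Il1a and Tlr7 was measured in microglia, but it was not shown to differ from that in other cells.

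Other genes of the pathway, from a list of 80, were also counted. In PU.1+ nuclei 16 of 59 tested genes passed (27.1%, against 7.81% of all genes), 8 in each direction. The rises were Traf5 (0.94 on the log2 scale), the cytokine receptor chain Lifr (0.59), the kinases Jak1 (0.52), Jak2 (0.25) and Tbk1 (0.24), Tlr13 (0.26), Cd14 (0.26) and the deubiquitinase Otulin (0.24). Among the falls were the microglial transcription factor Irf8 (−0.71), the inhibitor Nfkbie (−0.68), the inflammasome adaptor Pycard (−0.59), the NF-kB-inducing kinase gene Map3k14 (−0.57), Ticam2 (−0.32), Casp8 (−0.31) and Tab2 (−0.19). In GFAP+ nuclei 2 of 42 passed (Lifr 0.35, Tab2 −0.24), or 4.76% against 2.93% of all genes. In 3X- nuclei 3 of 40 passed (Tnip2 0.43, Tab2 −0.33, Tirap −0.61), 7.5% against 7.48%, and in NeuN+ nuclei 1 of 29 (Jak2 0.23), 3.45% against 2.06%. By the contrast of effects, 5 of 63 (7.94%, against 2.72% of all genes) differed in PU.1+ nuclei, with Traf5 (0.77), Jak1 (0.44), Lifr (0.37) and Tbk1 (0.25) higher and Map3k14 (−0.46) lower. Of 11 known glucocorticoid targets, 8 rose in each glial population. Among all tested genes, 631 of 14279 rose in PU.1+, 295 of 14527 in GFAP+ and 730 of 14587 in 3X- nuclei. In NeuN+ nuclei 4 of 9 tested targets rose and 1 fell, where 160 of 12664 genes rose and 101 fell. This list too was chosen with earlier results of these data known, so it is not an independent check of the injection.

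In the CFC experiment the same genes separated non-neuronal from neuronal nuclei in naive mice. In HIP, 25 of 29 tested members were higher in NeuN- nuclei and 3 were lower (70.8% of all tested genes passed), and in mPFC 27 of 30 were higher and 2 lower (69.5%). Of these members, 17 of the 29 in HIP and 18 of the 30 in mPFC passed the filter on low values through NeuN- nuclei alone, so their higher level there follows in part from the filter. The 3 lower in HIP NeuN- nuclei were Il1r1 (−2.19 on the log2 scale), Ripk2 (−0.61) and Nfkbiz (−0.59), and the 2 in mPFC were Ripk2 (−0.56) and Chuk (−0.26). These fitted values include a scaling between libraries that CPM lack. In CPM, naive mPFC Chuk was higher in NeuN- (70.3, 73.5 and 75.4) than in NeuN+ nuclei (58.0, 62.3 and 62.6). The CPM of Ripk2 in both regions and of Nfkbiz in HIP overlapped between fractions, while those of Il1r1 in HIP were lower in NeuN- nuclei. Il10ra was at 3.57 ± 0.364 FPKM (SD, n = 3) in HIP and 5.75 ± 0.0959 in mPFC NeuN- nuclei.

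In HIP NeuN- nuclei, 3 of 28 tested members passed at CFC30, 2 higher and 1 lower, where 2.38% of all tested genes passed. CFC10 and CFC30 were compared with the same naive libraries. Nfkbia held 5.59, 6.16 and 5.82 CPM in naive, 9.31, 10.1, 8.34 and 8.21 CPM at CFC10 and 10.2, 15.4, 9.10 and 9.47 CPM at CFC30. All CFC libraries were above all naive libraries, and the log2 fold change at CFC30 was 0.90 ± 0.165 (adjusted p = 0.0112), while at CFC10 it was 0.57 (adjusted p = 0.142). Il6ra held 52.3, 48.2 and 48.8 CPM in naive, 56.8 to 64.0 CPM at CFC10 and 72.8, 62.6, 68.6 and 63.9 CPM at CFC30 (0.43 ± 0.0732, adjusted p = 0.00728). Il6st held 126, 112 and 121 CPM in naive, 99.7 to 119 CPM at CFC10 and 99.4, 88.6, 99.9 and 102 CPM at CFC30 (−0.30, adjusted p = 0.0486). Single libraries decided these calls. That of Nfkbia was lost without naive replicate 1 or 3 (adjusted p up to 0.0627), that of Il6ra without naive replicate 3 (0.0523), and that of Il6st in 9 of the 11 fits that left out 1 library, all but those without CFC10 replicate 1 or CFC30 replicate 4 (up to 0.184). Without naive replicate 3 none of the 3 passed.

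At CFC10 no member passed in HIP NeuN- nuclei (0 of 28 by edgeR, 0 by DESeq2, 7 at an unadjusted p under 0.05), where 0.345% of all tested genes passed. Between CFC30 and CFC10 the count was also 0 of 28 (0 by DESeq2, 5 at an unadjusted p under 0.05, 0.169% of all genes). The microglia markers of these libraries overlapped between naive (1052 to 1246 CPM) and CFC30 (899.9 to 1281 CPM), and oligodendrocyte markers were 1.11-fold their naive level at CFC30 without overlap, and their part in the values above was not tested.

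In mPFC NeuN- nuclei 5 of 30 tested members passed at CFC30, 3 higher and 2 lower, where 5.85% of all tested genes passed. Nfkbia was again among them, at 4.52, 4.77 and 5.39 CPM in naive, 6.93, 6.57 and 6.15 CPM at CFC10 and 7.51, 12.7 and 9.84 CPM at CFC30. The 3 groups did not overlap, and the log2 fold change at CFC30 was 1.06 ± 0.175 (adjusted p = 0.00218). Il6ra rose from 74.3, 86.8 and 84.0 CPM in naive to 122, 100.1 and 103 CPM at CFC30 (0.43, adjusted p = 0.0224), with 71.1 to 93.2 CPM at CFC10. Il10ra rose from 89.4, 88.0 and 86.5 CPM to 126, 112 and 102 CPM (0.39, adjusted p = 0.0413). Il6st fell from 126, 109 and 131 CPM in naive to 78.1, 82.4 and 86.8 CPM at CFC30 (−0.54, adjusted p = 0.001), with 90.1, 103 and 102 CPM at CFC10. The opposite signs of Il6ra and Il6st seen in PU.1+ nuclei after corticosterone were thus also measured in NeuN- nuclei of both regions after CFC.

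Nlrp3 fell late in mPFC NeuN- nuclei. It held 16.3, 13.2 and 12.2 CPM in naive and 13.2, 15.1 and 13.5 CPM at CFC10, which overlapped, and 9.98, 6.86 and 8.30 CPM at CFC30, below all of them (−0.71 ± 0.149 against naive, adjusted p = 0.0112). Between CFC30 and CFC10 it was the 1 of 30 tested members that passed (−0.71, adjusted p = 0.043, 0.7% of all genes passed). At CFC10 against naive no member passed (0 of 30 by edgeR, 1 by DESeq2, 3 at an unadjusted p under 0.05), where 1.71% of all genes passed. The calls of Nfkbia and Il6st at CFC30 were kept in all 9 fits that left out 1 library. That of Il6ra was lost without any 1 naive library or CFC30 replicate 1 (adjusted p up to 0.122), and that of Il10ra without any 1 naive library, CFC10 replicate 3 or CFC30 replicate 1 or 2 (up to 0.165). That of Nlrp3 was lost without naive replicate 1 (0.0747), and its difference from CFC10 without naive replicate 2 or 3, CFC10 replicate 2 or 3 or CFC30 replicate 2 or 3 (up to 0.247). Microglia markers in these libraries were 1610 to 1655 CPM in naive, 1237 to 1394 CPM at CFC10 and 1210 to 1429 CPM at CFC30, or 0.809-fold and 0.81-fold, without overlap with naive. Oligodendrocyte markers were 1.18-fold and 1.14-fold and oligodendrocyte precursor markers 0.844-fold and 0.862-fold their naive level at CFC10 and CFC30, also without overlap. The part of these shifts in the values of the mPFC NeuN- members was not tested.

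In neuronal nuclei, Il6ra and Ripk2 passed in HIP and Rel and Chuk in mPFC. In HIP NeuN+ nuclei 1 of 12 tested members passed at CFC10 (4.86% of all genes) and 2 of 12 at CFC30 (8.56%). Il6ra held 9.68, 11.6, 8.43 and 9.04 CPM in naive, 15.0, 12.9, 12.4 and 14.7 CPM at CFC10 and 14.7, 12.7, 16.1 and 12.8 CPM at CFC30. Both CFC groups were above naive, by 0.46 at CFC10 (adjusted p = 0.0128) and by 0.51 at CFC30 (adjusted p = 0.00339) on the log2 scale. The first was lost without CFC10 replicate 1 (0.0504) and the second was kept throughout. Ripk2 fell at CFC30 by 0.28 on the log2 scale, from 27.8 to 35.0 CPM in naive to 23.7 to 26.4 CPM (adjusted p = 0.035). This call was lost without naive replicate 1 or 2 or CFC30 replicate 2 or 3, with adjusted p up to 0.135, and in the fit of all HIP groups (0.0643). Between CFC30 and CFC10 0 of 12 passed (0 by DESeq2, 1 at an unadjusted p under 0.05, 0.298% of all genes by edgeR).

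In mPFC NeuN+ nuclei, 1 of 12 tested members passed at CFC10 (14.4% of all genes) and 2 of 12 at CFC30 (24.7%), so the share of members was at or below that of all genes. Rel held 4.22, 3.82 and 4.28 CPM in naive, 5.87, 6.65 and 5.65 CPM at CFC10 and 7.71, 6.53 and 6.75 CPM at CFC30. Naive libraries lay below all CFC libraries, and the log2 fold change was 0.56 at CFC10 (adjusted p = 0.00827, and 0.0535 by DESeq2) and 0.79 ± 0.137 at CFC30 (adjusted p = 0.000139). The rise at CFC30 was kept in the 8 fits that tested Rel after 1 library was left out. Without CFC30 replicate 1 the level of Rel was under the filter, so it was tested neither at CFC10 nor at CFC30, and no member passed at CFC30. Chuk rose by 0.17 at CFC30, from 58.0, 62.3 and 62.6 CPM to 67.4, 70.4 and 65.7 CPM (adjusted p = 0.027). That call was lost without naive replicate 1 or CFC30 replicate 1 or 2 (up to 0.127), by DESeq2 and in the fit of all mPFC groups. Between CFC30 and CFC10 0 of 12 passed (0 by DESeq2, 2 at an unadjusted p under 0.05, 1.29% of all genes by edgeR).

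Relb was under the filter in mPFC NeuN+ nuclei by themselves, but it was tested in the fit of all mPFC groups. Its NeuN+ libraries held 1.64, 1.66 and 1.86 CPM in naive, 3.39, 3.26 and 4.02 CPM at CFC10 and 4.95, 4.51 and 3.88 CPM at CFC30, from 19 to 23 counts in naive and 50 to 74 counts at CFC30. No CFC library reached down to the naive ones, and the log2 fold change was 1.03 at CFC10 (adjusted p = 0.00126) and 1.41 at CFC30 (adjusted p = 1.01e-05) in that fit. In NeuN- nuclei of the same region Relb was at 9.62 to 12 CPM in naive and 10.7 to 11.6 CPM at CFC30. The difference of the CFC30 effect between fractions was −1.31 ± 0.218 (NeuN- minus NeuN+, adjusted p = 0.000619). In HIP NeuN+ nuclei, from another kit version, naive libraries were at 3.77 to 5.09 CPM, and no test set the regions against each other. The mPFC NeuN+ libraries also held more oligodendrocyte marker RNA after CFC (77.5 CPM in naive, 136 CPM at CFC10 and 160 CPM at CFC30, without overlap, against 5433 CPM in NeuN- nuclei at CFC30). Astrocyte markers were 1.13-fold their naive level at both times, and at CFC30 neuron markers were 0.965-fold and border macrophage markers, at under 1 CPM, 0.519-fold, all without overlap. The part of these shifts in the values of Relb, Rel and Chuk was not tested.

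**Figure D4:**
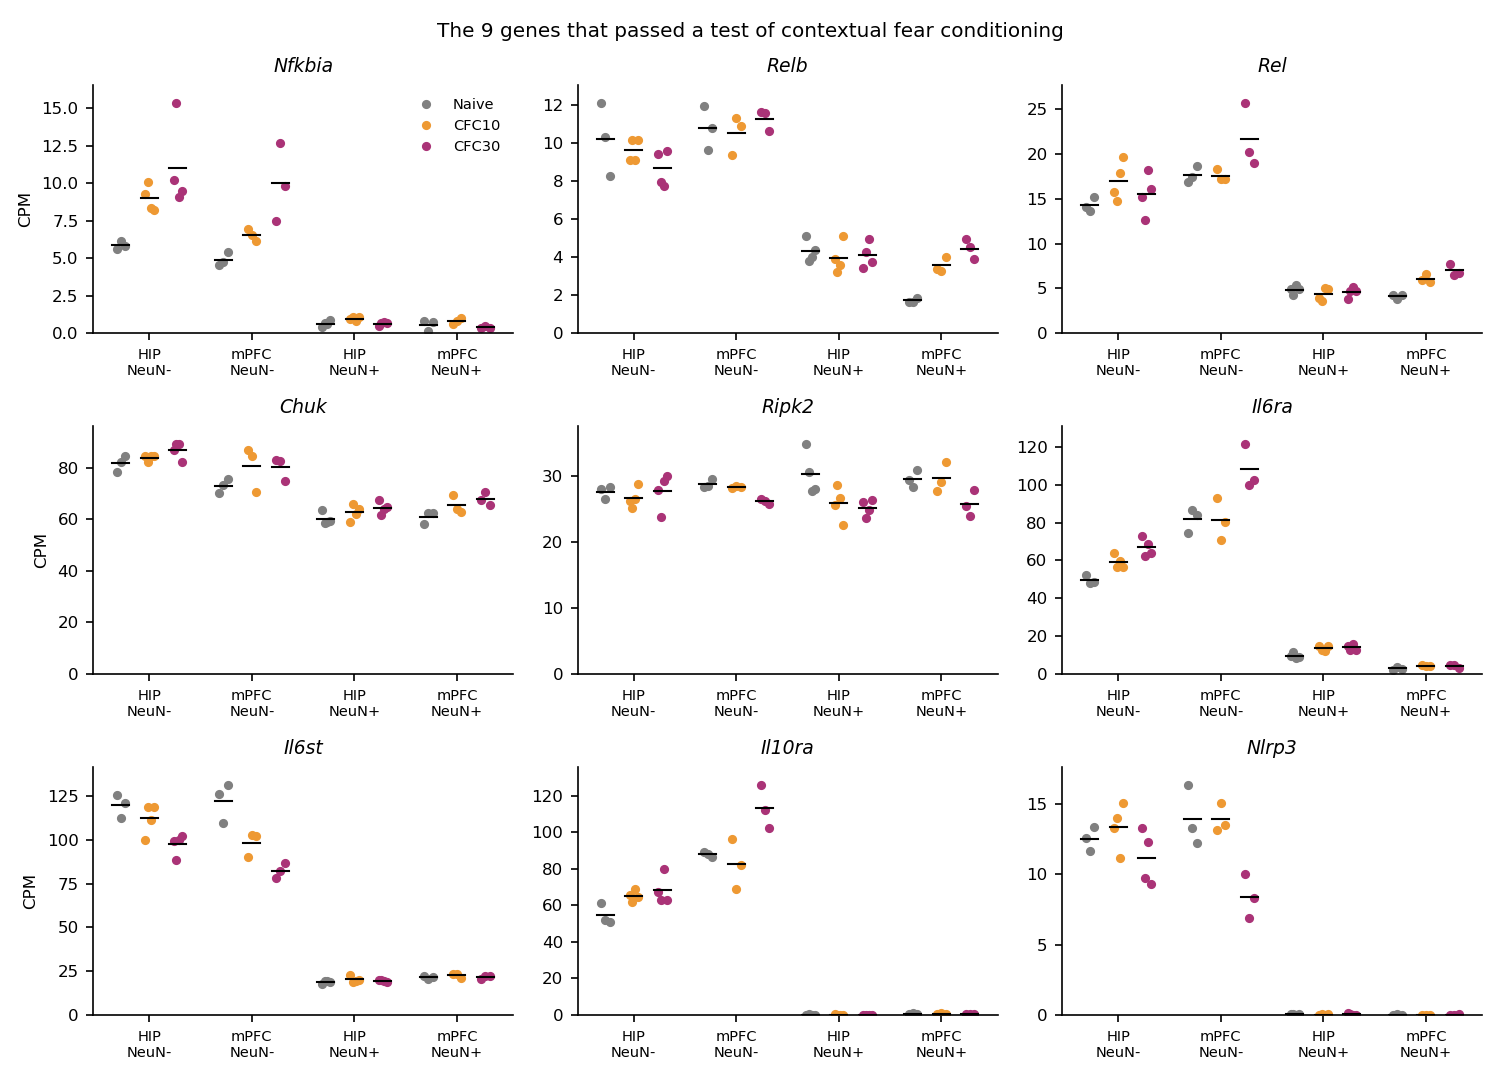
CPM of the 9 genes that passed a test of CFC, 1 point for each library with the group mean as a line, for naive, CFC10 and CFC30 in NeuN- and NeuN+ nuclei of HIP (n = 3 or 4) and mPFC (n = 3), with axes from 0. At CFC30, Nfkbia and Il6ra are higher and Il6st lower than naive in NeuN- nuclei of both regions, and Relb and Rel are higher in mPFC NeuN+ nuclei.

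The CFC30 effect differed between fractions for 2 of 30 tested members in mPFC, Relb and Il6st (−0.57, adjusted p = 0.00264), both kept in all 18 fits that left out 1 library, where 4.18% of all tested genes passed. In HIP it differed for 0 of 29 by edgeR (0 by DESeq2, 4 at an unadjusted p under 0.05), where 0.293% of all genes passed. Of the list of 80 other genes of the pathway, 1 of 57 tested passed in HIP NeuN- nuclei at CFC30 (1.75%, against 2.38% of all genes) and 5 of 57 in mPFC NeuN- nuclei (8.77%, against 5.85%). In NeuN+ nuclei 4 of 29 passed in HIP (13.8%, against 8.56%) and 8 of 29 in mPFC (27.6%, against 24.7%). None of the 38 genes overlapped any of the γH2AX peaks used here, 282 in HIP and 260 in mPFC, and other peaks were not analysed here. Of 53682 annotated genes in the tables, 1.53% overlapped a HIP peak and 1.46% an mPFC peak, so a count of 0 among 38 genes does not set them apart. The peaks were called on merged replicates of pooled animals and carry no value per replicate.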

How the data were processed

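Nuclear RNA was measured in 74 libraries, of which 73 were used (1 hippocampal NeuN- naive library was identical to another). The deposited values are raw counts per gene. The authors used Trimmomatic to trim the start of 1 read of each pair, HISAT2 to align to GRCm38, Picard to remove duplicates and featureCounts to count over the whole gene body. Kits differed between regions (version 1 of the stranded kit for mPFC, version 2 for hippocampus), so no test compared the regions. Program versions and the strand setting are not given in the sources used here. Of the deposited peak lists the positions were used. The authors made them with Bowtie2 and MACS2 from merged replicates.

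Gene IDs were matched to GENCODE vM21, and 67 unmatched IDs held 0.0232% to 0.0266% of counts. There were 0 columns of no known sample. The 38 genes and all lists were chosen with earlier results of these data known. Genes with a mean gene-body FPKM above 0.2 in at least 1 group of a fit were tested over the whole table by the quasi-likelihood F test of edgeR 4.0.16 after TMM scaling, with Benjamini-Hochberg adjustment, in R 4.3.3 with limma 3.58.1 and the data.table package (1.17.8), and called at an adjusted p under 0.05. Each corticosterone population was fitted by itself, as were the 3 CFC groups of a fraction and region, and contrasts of effects or populations used all groups of a table. CPM are counts over the library total without TMM scaling. For treatment effects within a population, their ratios differ slightly from fitted fold changes. Between populations or fractions they differ more, and for Chuk the sign was opposite. A member was named with its values in every comparison in which it passed, and called too low to judge at a mean count under 10 in every group. Alternatives were DESeq2 1.42.0, DESeq2 size factors, no filter, all groups in 1 fit, a replicate block and leaving out each library in turn. The fit was tested on simulated data with 200 changed genes. Figures and tables were made in Python 3.11.15 with pandas 2.3.3 and matplotlib 3.10.9. Promoters came from RefSeq. A gene of the pathway list that passed in PU.1+ nuclei is counted but not reported here by name.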

Additional observations from a re-analysis of the deposited data

Results flagged for a closer look

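Corticosterone effects differed between populations for 2 of the 38 genes, by the contrast of PU.1+ nuclei with the mean of NeuN+, GFAP+ and 3X- nuclei in edgeR. The difference of log2 effects was −0.75 (−0.7453) for Nfkbiz and −0.31 (−0.3123) for Il6st. In mPFC the CFC30 effect differed between NeuN- and NeuN+ nuclei for Relb, by −1.31 on the log2 scale, and for Il6st, by −0.57 (−0.5687). Of 44 groups of 4 libraries that were looked at for 1 library far from the others, among genes that passed a treatment test, 0 had one.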

How the results depend on the processing

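Over 37 treatment calls, no alternative turned a direction, and 31 were lost in no other setting. When 1 library was left out, 24 were never lost in the fits that tested them and 13 were lost at least once. A fit that did not test a gene was not counted as a loss, as for Rel in mPFC NeuN+ nuclei without CFC30 replicate 1. Without the filter on low values, calls numbered 1 for the contrast of PU.1+ with the other populations, 6 for corticosterone in 3X- nuclei, 3 for HIP NeuN+ CFC10, 1 for HIP NeuN- CFC10, 4 and 5 for mPFC NeuN+ CFC10 and CFC30, 2 and 8 for mPFC NeuN- CFC10 and CFC30, and 5 for mPFC NeuN- CFC30 against CFC10. By DESeq2 they numbered 1 for corticosterone in 3X-, 5 for HIP NeuN- CFC30, 0 and 1 for mPFC NeuN+ CFC10 and CFC30, 1 for mPFC NeuN- CFC10 and 3 for mPFC NeuN- CFC30 against CFC10. With all groups in 1 fit they were 5 for 3X-, 1 for HIP NeuN+ CFC30, 2 for mPFC NeuN+ CFC10, 1 for mPFC NeuN- CFC10 and 3 for mPFC NeuN- CFC30 against CFC10. Without the filter more genes were tested by construction, and beyond that the cause was not tested.

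When 1 library was left out, counts ranged from 1 to 3 for the contrast of PU.1+ with the other populations, 12 to 15 for corticosterone in PU.1+, 1 to 2 in 3X-, 0 to 3 for HIP NeuN+ CFC10, 1 to 2 for CFC30, 0 to 1 for HIP NeuN- CFC10, 0 to 3 for CFC30, 0 to 2 for mPFC NeuN+ CFC10, 0 to 4 for CFC30, 0 to 1 for mPFC NeuN- CFC10, 2 to 5 for CFC30 and 0 to 3 for CFC30 against CFC10. The main fits treated libraries as independent. In 0 of 11 fits did every same-numbered pair correlate above 0.1, and 35 of 124 pairs did. In every fit, though, the median correlation was higher for same-numbered pairs than for other pairs. In the fit of all hormone groups it was 0.0523 against −0.013. The study gated the populations in sequence from the same hippocampal nuclei, and NeuN+ and NeuN- nuclei in 1 sort. Libraries of different populations are thus likely to share mice, which the main contrasts between populations ignored. The sources used here do not say which library numbers share a mouse. With the replicate block, 3 members passed in the contrast of PU.1+ with the other populations. With the replicate block, corticosterone in PU.1+ nuclei lost the call of Tnfrsf1a (12 calls), and counts were 3 for HIP NeuN+ CFC10, 2 for mPFC NeuN- CFC10 and 2 for mPFC NeuN- CFC30 against CFC10. Depth limits the low ligands and the genes too low to judge in NeuN+ nuclei.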

Other observations

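Several calls appeared only in a setting other than the reported one. Without the filter on low values, Nlrp3 passed in PU.1+ nuclei after corticosterone (−0.26 on the log2 scale, adjusted p = 0.0123), as did Il1r1 (0.42, adjusted p = 0.043), and with the replicate block Ripk2 passed in the contrast of PU.1+ nuclei with the other populations (−0.36, adjusted p = 0.0158). In the fit of all 8 groups Ripk1 fell in 3X- nuclei (−0.30, adjusted p = 0.0157). Il10ra in HIP NeuN- nuclei at CFC30 did not pass in the main edgeR fit (0.32, adjusted p = 0.0745). It passed by DESeq2 (adjusted p = 0.0367) and by edgeR without the filter (adjusted p = 0.00342) or with the replicate block (adjusted p = 0.0475). Its direction was that in mPFC NeuN- nuclei and opposite to its fall in PU.1+ nuclei after corticosterone.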
